A study of Mus musculus with 6 samples.

Results

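Gene expression in sorted blood stem and progenitor cells was examined for 39 genes of the DNA replication fork, of nucleotide supply and of chromatin assembly behind the fork. The genes were listed by function, and 38 of the 39 were measured here, out of 18193 genes in all. Chaf1a, which codes for a subunit of the histone chaperone CAF-1, was not analysed here. Where several probe sets were annotated to a gene alone, the brightest on average over the 6 arrays stood for it. The cells were LKS+ cells of mouse, which are negative for lineage markers, high in c-Kit and positive for Sca-1, sorted at 20000 or more per mouse and at a purity above 90%. The data are 6 Affymetrix arrays, 3 of WT (wild-type) animals and 3 of animals that carry the Min allele of Apc (Apcmin), a germline premature stop codon in a scaffold of the complex that marks beta-catenin for degradation. No treatment is named for either genotype, and the labels give no age, sex or strain background. Each array was taken as 1 mouse, but no label names the animals, so p-values measure the spread between these arrays, which may be technical.

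At a replication fork, the CMG helicase (Cdc45, the MCM ring and the GINS complex) unwinds DNA, RPA coats the exposed single strands, and primase with DNA polymerase alpha lays down primers. The RFC clamp loader then places PCNA, a sliding ring, so that polymerase epsilon can copy the leading strand and polymerase delta the lagging strand. Fen1 and Lig1 join the lagging-strand fragments, CAF-1 deposits histones, and ribonucleotide reductase and thymidylate synthase supply deoxynucleotides. Many of these genes are transcribed as cells enter S phase, under E2F control, so in a mixed sorted population their messages follow the share of cycling cells. Long-term stem cells are mostly quiescent, while multipotent progenitors divide often.

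None of the 38 genes passed the test between Apcmin and WT LKS+ cells. In limma, 0 members had an adjusted p under 0.05 and 0 an unadjusted p under 0.05, where over all probe sets 0.0% had an adjusted and 3.81% an unadjusted p under 0.05. Over genes, with 1 probe set each, 3.11% had an unadjusted p under 0.05. The members' differences, Apcmin minus WT on the log2 intensity scale, ran from -0.25 for Tyms to 0.30 for Wdhd1, with a median of 0.03. The median over all genes was -0.04, and over the 8658 genes averaging at least 6 in log2 intensity it was 0.02. The mean was higher in Apcmin for 23 members and lower for 15. A higher mean was seen in 43.0% of all genes and in 56.3% of genes with a mean of at least 6, against 60.5% of members. The members' share thus lay near that of genes with a mean of at least 6, as 37 members had. No closer match by brightness was made. For 23 members (60.5%) the difference was under 0.1 in size, against 47.8% of genes with a mean of at least 6.

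How large a difference these arrays leave possible is given by the intervals, here for the brightest probe set of each gene. The 95% confidence interval of every member's difference lay inside 2-fold in either direction, with the outermost bounds at -0.96 for Tyms and 0.79 for Gins3. It lay inside 1.5-fold for 32 members, and the 6 exceptions were Tyms, Gins3, Mcm10, Wdhd1, Pola1 and Ung. The median half-width was 0.36. Other probe sets can lie outside these bounds, as a dim second probe set of Pole2 (mean 3.99) differed by 1.05. Tyms itself was dim, where background can make up part of the signal. For 31 members the group means differed by less than 1 standard deviation between arrays of a genotype. The share of all genes for which this held was not counted. In a bulk sample, a smaller share of cells in S phase and less message per cell cannot be told apart.

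**Figure D1:**
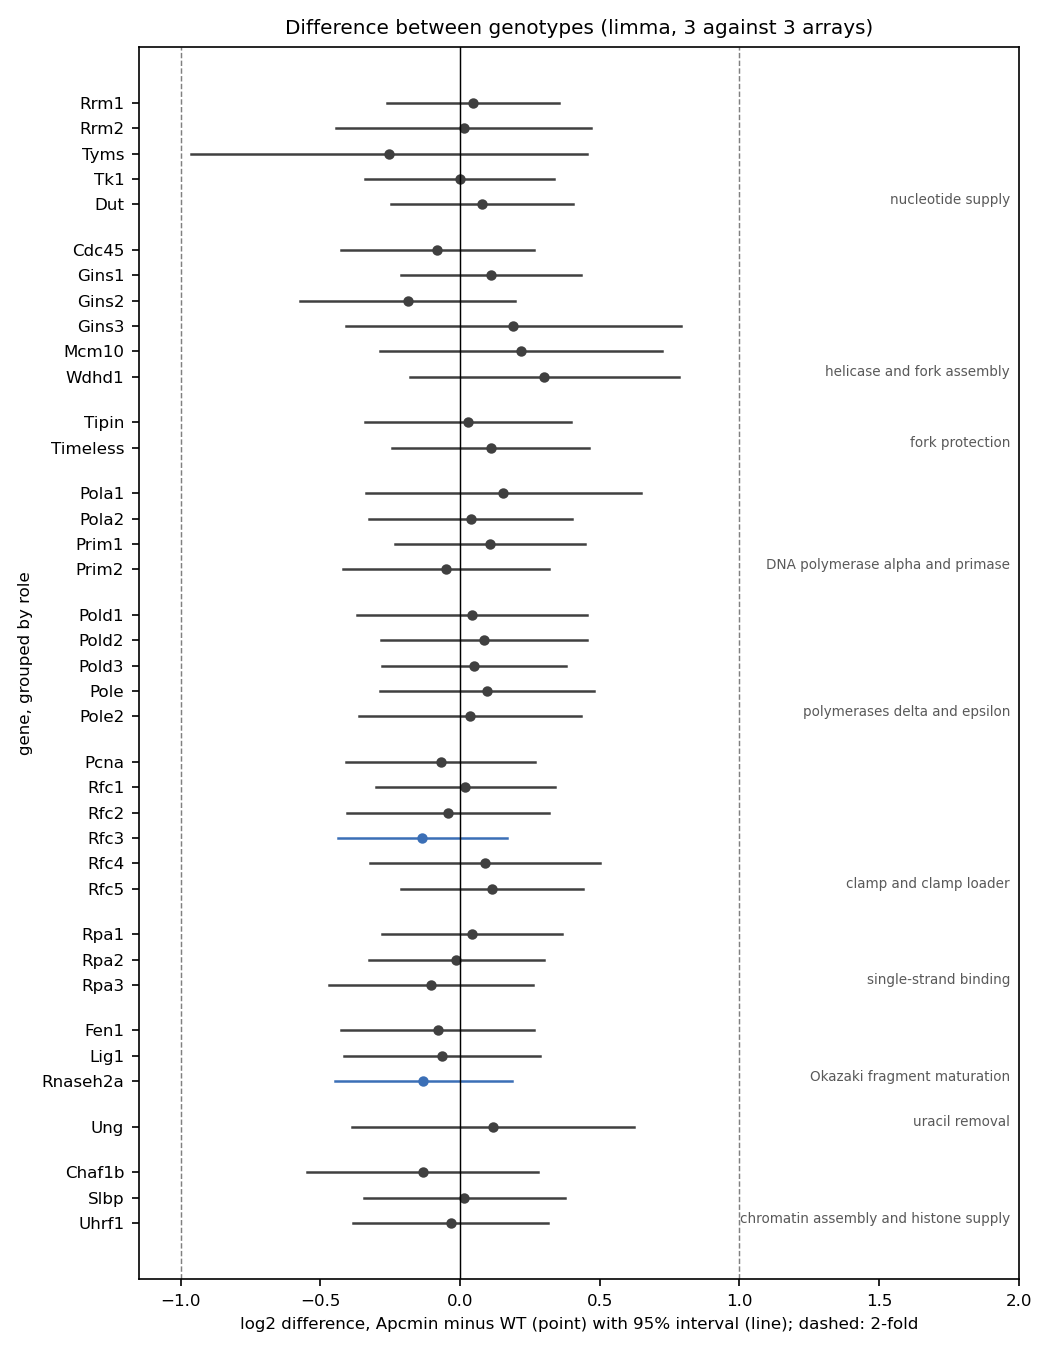
Difference in log2 intensity between Apcmin and WT (x axis, Apcmin minus WT; point) with its 95% confidence interval (line) for each of the 38 genes (y axis, grouped by role), from the limma fit over all probe sets; dashed lines mark 2-fold and blue marks the genes whose 3 Apcmin values all lay below the 3 WT values. Every interval, from the brightest probe set of each gene, includes 0 and lies inside 2-fold, and Rfc3 and Rnaseh2a are the pair in blue.

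**Figure D2:**
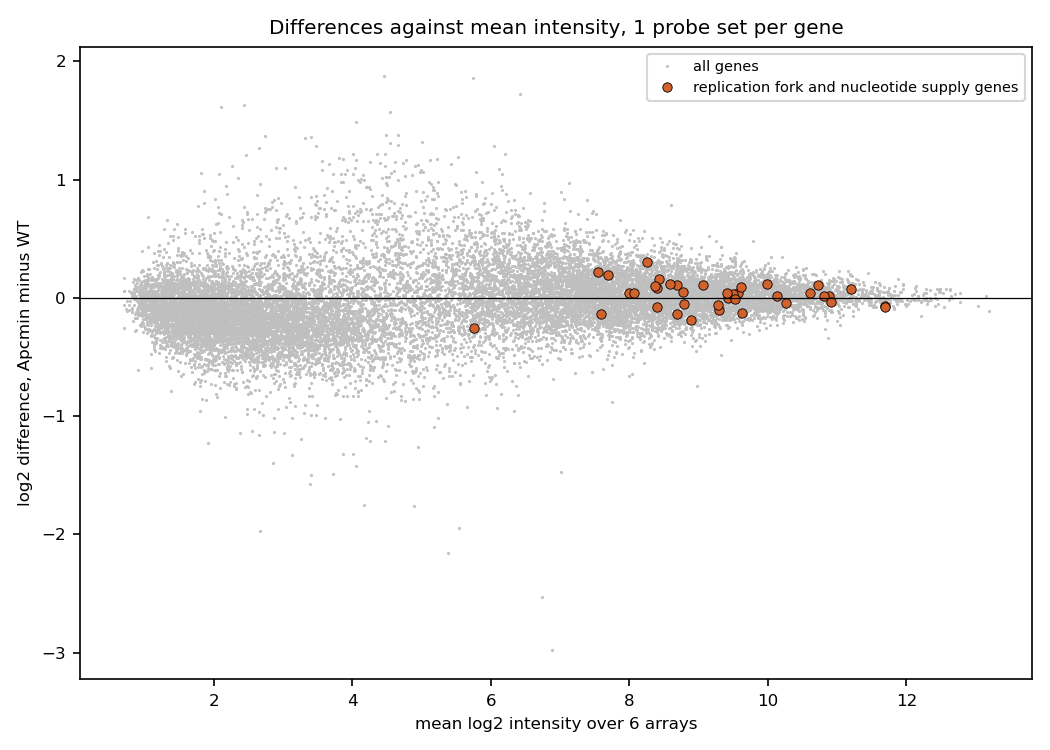
Log2 difference, Apcmin minus WT (y axis), against the mean log2 intensity over the 6 arrays (x axis) for all 18193 genes (grey) and the 38 replication genes (orange). The replication genes lie within the grey cloud at their intensity, and Tyms is the only one below a mean of 6.

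A few facts of the arrays bear on these values. The median log2 intensity was between 4.12 and 4.18 on the 6 arrays, and the number of arrays limits the precision. WT replicate 1 stood apart in the control probe set for the 3′ part of 18S ribosomal RNA, at 8.63 against 6.58 to 6.97 on the other arrays. Its array weight in limma was 0.64, while WT replicate 3 had the lowest weight, 0.56. The Y-linked genes Eif2s3y, Kdm5d and Uty averaged 7.32 on WT replicate 3 and 7.04 on Apcmin replicate 2 and no more than 1.23 on the others, so each genotype held 1 array with Y-linked signal. Of 8 stem and progenitor markers, 7 were measured and all had a mean of at least 7.97, with Kit at 9.83 and Cd34 at 10.94. All 7 were higher on average in Apcmin (median difference 0.08), and 0 passed in limma. Of the markers of other cell types 0 passed in limma. An unadjusted p under 0.05 was found for 1 of 4 T-cell, 1 of 5 granulocyte and monocyte and 2 of 5 erythroid markers. It was found for 0 of the B-cell, megakaryocyte, and endothelial and stromal markers, and for 3.11% of all genes. All 4 T-cell markers (means 2.05 to 3.12) and all 3 measured B-cell markers (means 1.83 to 7.99) were lower on average in Apcmin. A higher mean in Apcmin was seen in 43.0% of all genes and in 56.3% of genes with a mean of at least 6. Dim genes in general were thus lower in Apcmin more often than bright ones. Most of these markers were dim, but Cd79b (mean 7.99) differed by -0.14. Whether the lower markers followed the trend of dim genes was not tested. Of 5 granulocyte and monocyte markers, 4 were lower, with S100a8, S100a9 and Ngp bright at 11.36, 12.00 and 9.02 and differing by -0.05, -0.07 and 0.05, and Cd14 dim at 3.82 and lower without overlap (-1.02, limma adjusted p = 0.954). Of 5 erythroid markers 3 were lower. Slc4a1 (mean 3.72) and Hba-a1 (mean 2.10) were lower without overlap, at differences of -1.49 and -0.45 (limma adjusted p = 0.954 for both). Rhag and Klf1 differed by 0.89 and 0.03. Over all genes 4.76% were lower without overlap. The 4 megakaryocyte markers (means 4.01 to 7.98) had a median difference of -0.12 and the 6 endothelial and stromal markers (means 2.20 to 4.34) one of -0.13. The part of such cells in the members' values was not tested. The 6 measured markers of cycling cells (Mki67, Top2a, Ccna2, Cdk1, Aurkb and Birc5) averaged 9.93 to 10.06 on the WT arrays and 10.01 to 10.05 on the Apcmin arrays, so the groups overlapped.

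The promoters of these genes share letters that did not enter the listing. RefSeq promoter sequences of the build GRCm38.p6, from 250 bases before to 50 after a start site, were found for 32 of the 38 genes. The letters TTCCCGC or TTGGCGC, common forms of an E2F site, stood on either strand in 16 of the 32 genes (50%), against 7.79% of the 27025 genes in the table. TTCCCGC alone was found in 12 members and 5.29% of all genes, and TTGGCGC in 5 members and 2.85%, with Pola1 holding both. The CCAAT box, the letters bound by NF-Y, occurred in 17 members and 41.1% of all genes, and TTTGAA, the form of the cell cycle homology region of late cell cycle promoters, in 4 members and 20.2% of all genes. Genes with several start sites were counted once, as holding a motif if any of their windows did. The median difference between genotypes was 0.04 for the 16 genes with either E2F form and 0.03 for the 16 without.

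The 100 bases before the start site are shown for Rrm1, Uhrf1 and Gins3, which hold TTCCCGC there, and for Pcna and Rrm2, which hold a CCAAT box without either E2F form; capitals mark these motifs on either strand. The Rrm1 window is chr7:102441595-102441694 on the plus strand, with TTCCCGC beginning 67 bases before the start.
Rrm1: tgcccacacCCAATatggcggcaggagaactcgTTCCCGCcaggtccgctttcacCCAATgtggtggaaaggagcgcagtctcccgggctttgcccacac
The Uhrf1 window is chr17:56303237-56303336 on the plus strand, with TTCCCGC 48 bases before the start.
Uhrf1: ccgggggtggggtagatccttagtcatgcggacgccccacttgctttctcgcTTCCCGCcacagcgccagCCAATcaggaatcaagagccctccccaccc
The Gins3 window is chr8:95633459-95633558 on the plus strand, with GCGGGAA, the reverse complement of TTCCCGC, 41 bases before the start.
Gins3: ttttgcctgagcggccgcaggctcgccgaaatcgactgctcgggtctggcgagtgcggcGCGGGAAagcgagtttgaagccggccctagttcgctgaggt
The Pcna window is chr2:132253181-132253280 on the minus strand, with ATTGG, the reverse complement of CCAAT, 87 bases before the start.
Pcna: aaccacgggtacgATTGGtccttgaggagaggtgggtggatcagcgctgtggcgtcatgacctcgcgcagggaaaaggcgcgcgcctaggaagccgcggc
The Rrm2 window is chr12:24708154-24708253 on the plus strand, with CCAAT 50 bases before the start.
Rrm2: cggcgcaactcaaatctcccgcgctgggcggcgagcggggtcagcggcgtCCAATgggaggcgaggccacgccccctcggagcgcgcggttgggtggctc
A match describes the letters only, and the absence of a match says only that these letters are not in the window.

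Nucleotide supply genes held the largest difference below WT, that of the dim Tyms at -0.25, and none passed. Each probe set has its own response, so the order of signals between genes does not rank their messages. Of the 5, 3 were higher on average in Apcmin and 2 lower (median difference 0.01). Rrm1 codes for the large, catalytic subunit of ribonucleotide reductase, the enzyme that turns ribonucleotides into deoxyribonucleotides. Its log2 intensity was 9.52, 9.61 and 9.51 on WT replicates 1, 2 and 3 and 9.62, 9.56 and 9.60 on Apcmin replicates 1, 2 and 3. The groups overlapped in a narrow band, and the difference was 0.05 with an interval of -0.26 to 0.35 (limma, adjusted p = 0.976). Rrm2 codes for the small subunit, whose level follows S phase. It was at 11.12, 10.59 and 10.90 in WT and 11.10, 10.83 and 10.72 in Apcmin, so replicate 1 of each genotype was high and WT replicate 2 lowest. The spread within a genotype was far larger than the difference of 0.01 (interval -0.44 to 0.47, adjusted p = 0.997). Without WT replicate 1 the Rrm2 difference was 0.14 and without WT replicate 2 it was -0.12.

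Tyms, thymidylate synthase, makes the thymidine nucleotide and had the dimmest signal of the members. Its brightest probe set was at 6.48, 5.45 and 5.74 in WT and 5.82, 5.29 and 5.79 in Apcmin. WT replicate 1 was the highest and the other 5 values were interleaved. The difference was -0.25 with a standard error of 0.30 (adjusted p = 0.954), and without WT replicate 1 it was 0.04. The 3 other Tyms probe sets, at means of 5.30, 4.44 and 1.68, differed by -0.28, -0.11 and -0.05. All 4 were dim, where background can make up part of the signal. Tk1, thymidine kinase of the salvage route, was at 9.43 ± 0.06 in WT and 9.43 ± 0.14 in Apcmin (mean ± SD, n = 3, as for every such pair of values). Dut, the dUTPase that keeps uracil out of DNA, had values of 11.16 ± 0.11 in WT and 11.24 ± 0.05 in Apcmin. The dimmer Dut probe set (mean 7.58) went the other way (-0.13 against 0.08).

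Genes of the helicase and of fork assembly held the largest difference above WT, that of Wdhd1, and none passed. Of the 6, 4 lay above and 2 below WT on average, at a median of 0.15. Wdhd1, the trimeric hub that ties the helicase to polymerase alpha, was at 7.80, 8.03 and 8.48 in WT and 8.50, 8.39 and 8.33 in Apcmin. WT replicates 1 and 2 lay below every Apcmin value, but WT replicate 3 lay among them. The difference was 0.30 with a standard error of 0.20 (adjusted p = 0.954). Without WT replicate 3 it was 0.49 with an adjusted p of 0.343, and without WT replicate 1 it was 0.15. Mcm10, which helps to activate the helicase, was at 7.06, 7.68 and 7.57 in WT and 7.65, 7.47 and 7.86 in Apcmin (difference 0.22, adjusted p = 0.954). WT replicate 1 was the lowest Mcm10 value, and the remaining arrays were interleaved. Without that array the Mcm10 difference was 0.03.

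The GINS subunits did not share a direction. Gins3 was at 7.05, 7.90 and 7.86 in WT and 7.92, 7.78 and 7.69 in Apcmin, with WT replicate 1 far below the rest. Its difference of 0.19 became -0.09 without that array. Gins2 was at 9.08, 9.15 and 8.74 in WT and 8.79, 8.75 and 8.86 in Apcmin (difference -0.19, adjusted p = 0.954). WT replicates 1 and 2 lay above every Apcmin value and WT replicate 3 below every one, and the other Gins2 probe set differed by -0.15. Gins1 was at 9.01 ± 0.10 in WT and 9.12 ± 0.05 in Apcmin. Cdc45, the helicase cofactor loaded as origins fire, was at 8.59, 8.47 and 8.28 in WT and 8.36, 8.40 and 8.34 in Apcmin. The 3 Apcmin values fell within the WT range, and the difference was -0.08 (interval -0.43 to 0.26, adjusted p = 0.964).

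Both fork protection genes had nearly equal means. Tipin was at 9.49 ± 0.14 in WT and 9.52 ± 0.14 in Apcmin. Its partner Timeless, which travels with it at the fork, had values of 8.63 ± 0.10 in WT and 8.74 ± 0.15 in Apcmin. The dimmer Timeless probe set went the other way (-0.23 against 0.11).

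The DNA polymerases had small differences, mostly above 0. Of the 4 genes of DNA polymerase alpha and primase, 3 had a higher mean in Apcmin (median 0.07), and so did all 5 of polymerases delta and epsilon (median 0.05), and none passed. Pola1, the catalytic subunit of polymerase alpha, was at 8.36 ± 0.30 in WT and 8.51 ± 0.21 in Apcmin. Pola2, its accessory subunit, had values of 7.97 ± 0.13 in WT and 8.01 ± 0.15 in Apcmin. Prim1, the catalytic primase subunit, differed by 0.11 and Prim2, the large subunit, by -0.05. Pold1, the catalytic subunit of polymerase delta, was at 9.39 ± 0.24 in WT and 9.43 ± 0.10 in Apcmin. Pole, that of polymerase epsilon, had values of 8.32 ± 0.22 in WT and 8.42 ± 0.05 in Apcmin. WT replicate 1 was the lowest array for Pold1, Pole and Pole2. Without that array the differences of Pold1, Pole and Pole2 were -0.09, -0.02 and -0.09, all below 0, so the common direction rested on 1 library. The other delta and epsilon subunits differed by 0.09 (Pold2), 0.05 (Pold3) and 0.04 (Pole2).

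Of the clamp and clamp loader genes, 3 were higher on average in Apcmin and 3 lower (median -0.01). Pcna, the sliding clamp and a standard marker of proliferating cells, was at 11.58, 11.86 and 11.73 in WT and 11.58, 11.69 and 11.68 in Apcmin. The Apcmin values all fell inside the WT range, and the difference was -0.07 (interval -0.41 to 0.27, adjusted p = 0.966). Rfc3, a small subunit of the loader, was one of the 2 members whose groups did not overlap. Its values were 7.61, 7.68 and 7.68 in WT and 7.52, 7.53 and 7.51 in Apcmin. The difference was -0.13 and its interval -0.44 to 0.17 (limma, adjusted p = 0.954). The difference was 1.10-fold on the linear scale, and the values lay close together within each genotype. The other Rfc3 probe set differed by -0.10, but its groups overlapped. Rfc5, another small subunit, was at 8.57, 8.39 and 8.61 in WT and 8.65, 8.67 and 8.60 in Apcmin, a difference of 0.11 with WT replicate 2 the lowest value. Rfc1, the large subunit, Rfc2 and Rfc4 differed by 0.02, -0.04 and 0.09.

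The 3 genes of RPA, the single-strand binding complex, differed by 0.04 (Rpa1, the large subunit), -0.01 (Rpa2) and -0.10 (Rpa3, the small subunit). All 3 genes of Okazaki fragment maturation lay lower on average in Apcmin (median -0.08), and none passed. Rnaseh2a, the catalytic subunit of the RNase H2 that removes ribonucleotides from DNA, was at 9.76, 9.69 and 9.65 in WT and 9.48, 9.62 and 9.61 in Apcmin. Each Apcmin value lay below each WT value, but by only a small step between the closest pair. The difference was -0.13 with an interval of -0.45 to 0.19 (adjusted p = 0.954). With Rfc3, 2 members were lower without overlap and 0 higher, out of 38. Over all genes 4.76% were lower without overlap, 2.97% higher and 7.73% either. Of genes with a mean of at least 6, 3.48% were lower without overlap and 7.63% stood apart either way, so the members' count is near the background. Fen1, the flap endonuclease, was at 11.92, 11.65 and 11.64 in WT and 11.69, 11.63 and 11.64 in Apcmin. WT replicate 1 was the high value, the other 5 lay close together, and the difference of -0.08 became 0.01 without it. Lig1, the ligase that seals the fragments, was at 9.31 ± 0.06 in WT and 9.25 ± 0.16 in Apcmin. The Lig1 difference of -0.06 became 0.02 without Apcmin replicate 1.

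Ung, which removes uracil from DNA, had values of 9.93 ± 0.31 in WT and 10.05 ± 0.23 in Apcmin (difference 0.12, adjusted p = 0.964). Among chromatin genes, Uhrf1, which brings the maintenance DNA methyltransferase to new strands, was at 11.07, 10.80 and 10.93 in WT and 11.00, 10.90 and 10.81 in Apcmin. The groups overlapped almost fully, and the difference was -0.03 (interval -0.38 to 0.32, adjusted p = 0.983). Slbp, which binds the stem-loop of replication-dependent histone messages, had values of 10.80 ± 0.13 in WT and 10.81 ± 0.13 in Apcmin. Chaf1b, the mid-size subunit of CAF-1, had values of 8.76 ± 0.23 in WT and 8.62 ± 0.14 in Apcmin.

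**Figure D3:**
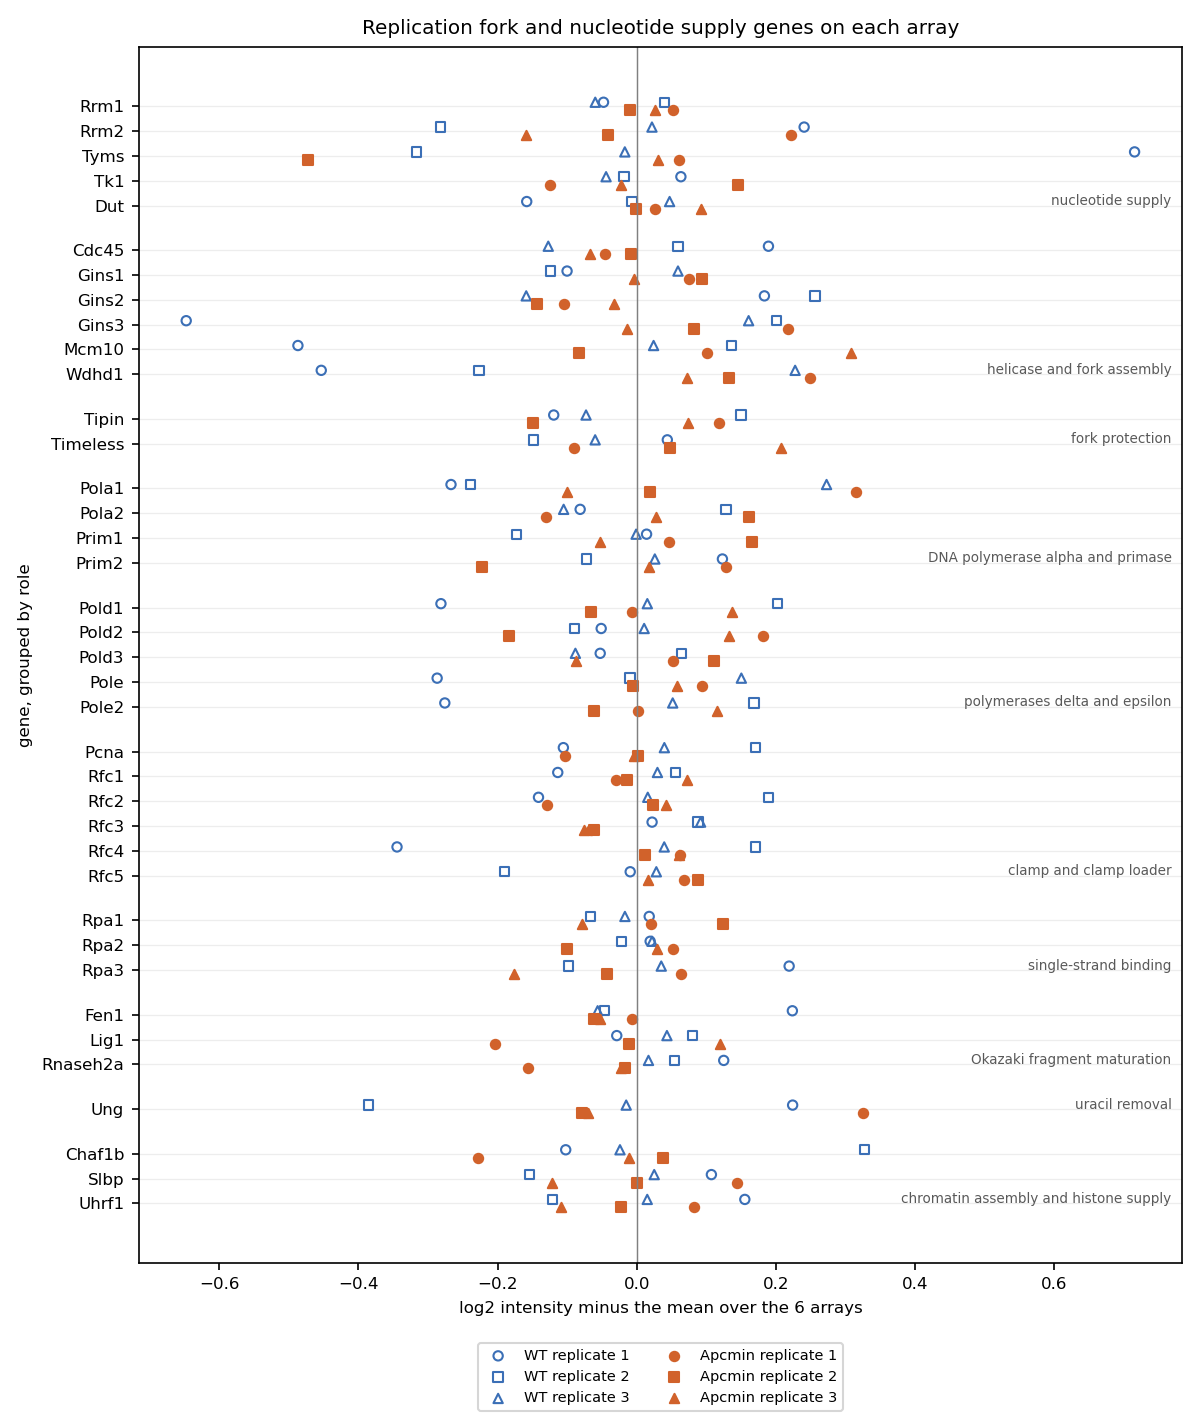
Log2 intensity of each gene on each array minus the gene's mean over the 6 arrays (x axis) for the 38 genes (y axis, grouped by role); open blue symbols are WT arrays, filled orange symbols Apcmin arrays, and the shape gives the replicate. Orange and blue interleave for 36 genes, and WT replicate 1 (open circles) lies far out for Tyms, Gins3, Mcm10, Wdhd1 and Rfc4.

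The 7 members whose group means differed by more than the standard deviation within a genotype were Rfc3, Rnaseh2a, Gins1, Rfc5, Wdhd1, Gins2 and Rrm1. WT replicate 1 was the lowest of the 6 arrays for 12 members (31.6%) and the highest for 7. It was the lowest array for 28.0% of all genes with a mean of at least 6, so it stood out among the members about as it did elsewhere. The SD was larger in WT than in Apcmin for 27 members (71.1%), against 60.4% of genes with a mean of at least 6. The median SD within a genotype was 0.13 for the members and 0.18 for those genes. Without WT replicate 1, 20 members were higher on average in Apcmin and 18 lower, at a median difference of 0.01, and 0 passed. The sign of the difference turned in 11 members when that array was left out.

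The course of members over the 6 arrays is given as a description only. By the mean absolute distance between array deviations, the members closest to Pcna over the 6 arrays were Rfc2 (0.0285 on the log2 scale), Rfc1 (0.0494) and Chaf1b (0.0656). This distance favours genes of low spread and has no reference over all genes. In an order taken from Rrm2 after its values were seen, Rrm2, Slbp, Uhrf1 and Rpa3 descended over WT replicates 1, 3 and 2 and over Apcmin replicates 1, 2 and 3, and Rfc1, Rfc2 and Lig1 ascended over the same arrays. Of genes with a mean of at least 6, 4.24% held the first order and 3.87% the second.

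For Uhrf1 and Slbp this order depended on the probe set. The second Uhrf1 probe set was at 6.67, 7.05 and 7.41 in WT and 7.25, 6.92 and 7.01 in Apcmin, lowest on the array where the brightest was highest. The brightest Slbp probe set was at 10.91, 10.65 and 10.83 in WT and 10.95, 10.81 and 10.68 in Apcmin. The second was at 7.06, 7.93 and 7.69 in WT and 7.99, 7.91 and 7.86 in Apcmin, again lowest on WT replicate 1. Of the other Rrm2 probe sets, the third (7.38, 6.99 and 7.26 in WT and 7.29, 7.06 and 6.92 in Apcmin) kept the order of the brightest and the second did not. The brightest Rrm2, Fen1 and Pold1 probe sets are of the array maker's class that can share probes with other transcripts, and that of Rfc4 of the class shared by related transcripts. Actb, a cytoskeletal gene outside the list, showed the same split. Its brightest probe set was at 12.20, 11.85 and 12.01 in WT and 12.17, 11.97 and 11.89 in Apcmin. The other Actb probe set gave 11.36, 11.71 and 11.94 in WT and 11.75, 11.55 and 11.61 in Apcmin. The control probe sets for the 3′ and 5′ parts of actin differed by 0.70 to 0.91 over the 6 arrays, with WT replicate 3 the lowest, and their part in this order was not tested.

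**Figure D4:**
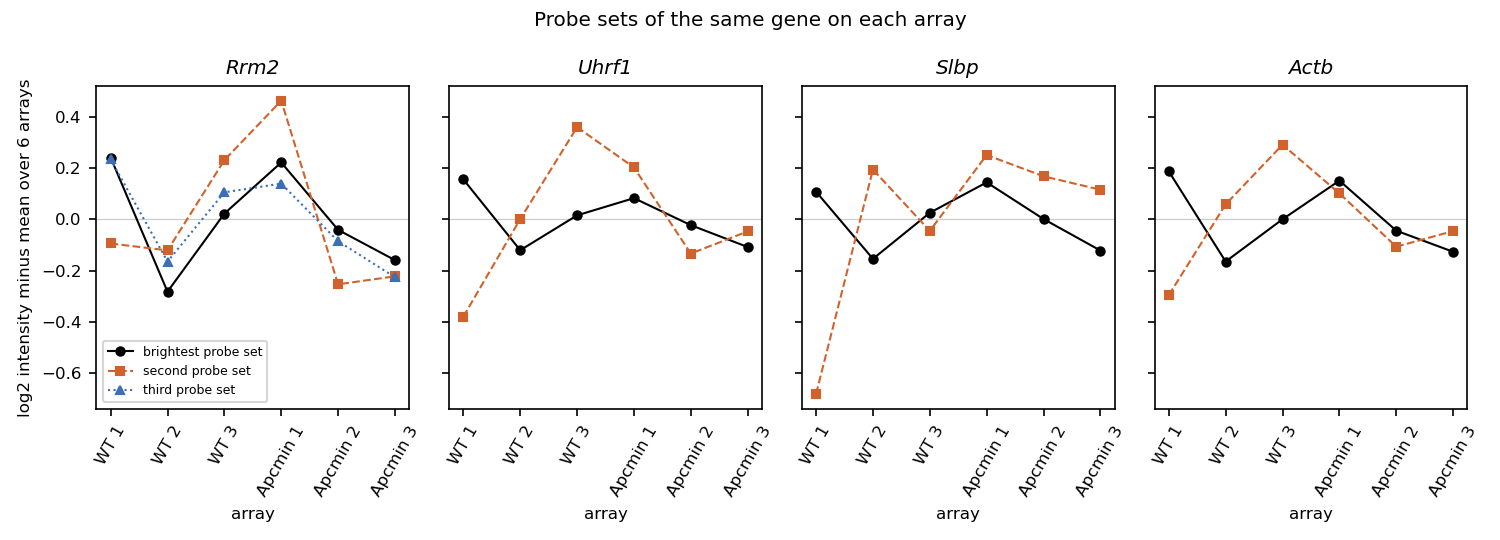
Log2 intensity of each probe set with a mean of at least 6 minus its mean over the 6 arrays (y axis), by array (x axis), for Rrm2, Uhrf1, Slbp and, for comparison, Actb. The genes were chosen after their values were seen: the brightest probe sets (black) are higher on WT replicate 1 than on WT replicate 2 in all 4 panels, while the second probe sets (orange) of Uhrf1, Slbp and Actb are lowest on WT replicate 1.

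Across all probe sets of the members the lack of calls was the same. The 38 genes had 76 probe sets, and 11 genes had a single one. Of the 38 further probe sets, 26 had the sign of the gene's brightest, 15 of 23 with a mean of at least 6 and 11 of 15 below it. The smallest unadjusted p among them was 0.0589, from a dim second probe set of Pole2 (mean 3.99, difference 1.05, adjusted p = 0.954), whose brighter probe set differed by 0.04. A dim second Pola2 probe set differed by -0.56 and the third by 0.51, in opposite directions.

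Other genes of the replication machinery gave no calls either. Of 95 further genes in the lists for origin licensing, fork factors, nucleotide enzymes and the replication checkpoint, 92 were measured, 0 passed in either direction and 1 had an unadjusted p under 0.05. Over all genes 3.11% had an unadjusted p under 0.05 in limma. The mean was higher in Apcmin for 57 and lower for 35, with a median difference of 0.04. Of genes with a mean of at least 6, 56.3% were higher, at a median difference of 0.02. The lists were not tested against these shares. Origin licensing genes, which load the MCM helicase in G1, had 14 of 17 higher and a median of 0.07, with Orc1 at 0.53 and Cdc7 at -0.13 as the members of smallest p in each direction. Further fork factors had 17 of 32 higher (median 0.01), with Top1, a topoisomerase, at 0.25 and Gins4, the remaining GINS subunit, at -0.21. Further nucleotide enzymes had 17 of 31 higher (median 0.04), with Atic, of purine synthesis, at 0.26 and Shmt1, of folate metabolism, at -0.28. Of the checkpoint genes 9 of 12 were higher (median 0.13). Atr, the kinase that senses stalled forks, was at 7.50 ± 0.04 in WT and 7.82 ± 0.09 in Apcmin. Its partner Atrip differed by -0.24. Atr was the gene with an unadjusted p under 0.05, and its adjusted p in limma was 0.954.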

How the data were processed

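RNA was amplified linearly with the Nugen Ovation system and hybridized to an Affymetrix whole-genome mouse array, per the labels' protocols. The authors deposited linear intensities, 1 for each probe set on each array. The submitters' processing notes name RMA, without a version, as the summary method. All values were above 0, and their log2 was used with no pseudocount added. Of 45101 probe sets, 64 controls stayed out, which left 45037 for the test. The platform annotation gave 34945 of them exactly 1 symbol, 932 several and 9160 none. All 38 measured members matched a RefSeq table of GRCm38.p6 through their Entrez identifiers, with 0 symbols changed.

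Apcmin was compared with WT in limma 3.58.1 under R 4.3.3 (lmFit and eBayes, genotype only), adjusted by Benjamini-Hochberg over all 45037 probe sets, at a threshold of 0.05; the step was tested on simulated data. Summaries used Python 3.11.15 with pandas 2.3.3. The members, lists and tests were chosen with earlier results of these data known, so the list is described by counts and a median and has no test. Values on every array were printed for members whose groups did not overlap, the 3 of smallest p in each direction, the 2 brightest, the 2 dimmest, the 3 with the widest spread within a genotype, and for Pcna, Rrm1, Rrm2, Tyms, Cdc45 and Uhrf1. From each further replication list the gene of smallest p in each direction was named. Replicate numbers are shared between genotypes. Alternatives were another normalization, filter, floor, offset, variance model, weighting, covariate, block or probe set rule, and leaving out each array.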

Additional observations from a re-analysis of the deposited data

How the results depend on the processing

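The lack of calls held under all 16 alternatives: 0 probe sets or genes and 0 members passed in each, and the smallest adjusted p of a member was 0.343, for Wdhd1 without WT replicate 3. Without WT replicate 3, 5864 probe sets had an unadjusted p under 0.05, against 1267 to 1533 without each other array. The members' median difference was between 0.0032 (array weights) and 0.04 (mean of at least 6) with other settings and between 0.01 and 0.04 with each array left out. Members with a higher mean in Apcmin numbered 19 to 24 and 20 to 23. Single signs were less stable. The difference turned sign in 20 members when some array was left out, in 6 with array weights and in 3 after further quantile normalization. It turned in 6 with the second brightest probe set and in 5 with the mean of all probe sets. Under these probe set rules only the 27 members with more than 1 probe set could turn. Of the members, Wdhd1 had an unadjusted p under 0.05 without WT replicate 3, and Rfc3 had one with values under 4 set to 4 and with 16 intensity units added. The filter at a mean of 6 left Tyms untested. With the replicate number as a block (replicate block), 0 probe sets passed, the members' median stayed at 0.03 and 1398 probe sets had an unadjusted p under 0.05. Same-numbered arrays' deviations from their group means correlated at -0.05, -0.07 and -0.23 over all probe sets. With 3 arrays per genotype, these values cannot decide whether same-numbered arrays were handled together. The sample titles give only the replicate number. Dim probe sets, those of Tyms among them, have no detection call, and background limits what they can show.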
